A study of Rattus norvegicus with 44 samples.

Results

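The 7 genes followed here are Hmgcs1, Fdft1, Sqle, Lss, Cyp51, Dhcr7 and Insig1, which belong to the cholesterol synthesis pathway and were taken by symbol from the 20003 rows of the CA1 table and the 20050 rows of the dentate gyrus (DG) table, of which 19882 were in both. Polyadenylated RNA was sequenced from CA1 and from DG, dissected from the hippocampus of 22 male rats, so that 44 libraries were available. Young vehicle rats (n = 8) were 5 to 7 months old and were injected with saline. Young LPS rats (n = 8) were of the same age and received lipopolysaccharide, a bacterial endotoxin that provokes inflammation, at 1 mg per kg. Aged vehicle rats (n = 6) were 14 to 16 months old and were injected with saline. Every rat had 7 weekly intraperitoneal injections and was killed 48 hours after the last, and no rat was both aged and given LPS. The labels give no strain. In both regions the submitters compared LPS with vehicle in young rats, aged with young vehicle rats, and LPS with aged rats, the last to set inflammation beside age.

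Cholesterol hardly crosses the blood-brain barrier, so the brain makes its own, mainly in glia (astrocytes and oligodendrocytes) and to a lesser extent in adult neurons. Acetyl units are joined and reduced to mevalonate, turned into isoprenes, condensed to squalene, closed to lanosterol and trimmed to cholesterol. The transcription factor SREBP2 switches these genes on together when sterols in the endoplasmic reticulum run low, and INSIG proteins hold it back when sterols are plentiful. Among the 7 genes, Hmgcs1 encodes the synthase that makes HMG-CoA ahead of mevalonate. Fdft1 encodes squalene synthase, Sqle squalene epoxidase and Lss lanosterol synthase, which act in that order. Cyp51 encodes the enzyme that removes a methyl group from lanosterol, and Dhcr7 encodes the reductase that finishes cholesterol from 7-dehydrocholesterol. Insig1 encodes the INSIG protein that is itself a target of SREBP.

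RefSeq promoter windows of the GRCr8 assembly, from 250 bases before to 50 bases after a start site, were at hand for 5 of the 7 genes and are given for the 3 genes that varied together most in CA1 (Hmgcs1, Cyp51, Insig1) and for Lss, which ran against Cyp51 in DG. Each is written from 5′ to 3′ on the strand of the gene. Capitals mark matches, on either strand, to CCAAT (the box bound by NF-Y) and to CACNCCAC (the core of the sterol regulatory element, which the longer form TCACNCCAC contains). The windows lie at chr2:53382054-53382353 (plus strand) for Hmgcs1, chr4:30991443-30991742 (plus strand) for Cyp51, chr4:8057720-8058019 (minus strand) for Insig1 and chr20:12118181-12118480 (minus strand) for Lss.
Hmgcs1: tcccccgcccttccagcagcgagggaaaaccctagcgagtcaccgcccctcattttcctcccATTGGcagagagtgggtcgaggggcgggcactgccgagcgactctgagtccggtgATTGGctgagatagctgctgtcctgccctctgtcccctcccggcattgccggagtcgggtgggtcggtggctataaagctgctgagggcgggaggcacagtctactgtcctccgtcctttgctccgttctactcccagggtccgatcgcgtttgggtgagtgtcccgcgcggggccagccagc
Cyp51: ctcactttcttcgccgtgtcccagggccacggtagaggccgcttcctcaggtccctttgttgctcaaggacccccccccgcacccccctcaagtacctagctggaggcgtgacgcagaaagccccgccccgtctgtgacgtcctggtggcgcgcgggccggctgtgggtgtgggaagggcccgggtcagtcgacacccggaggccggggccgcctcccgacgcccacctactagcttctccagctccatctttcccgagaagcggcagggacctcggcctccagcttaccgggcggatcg
Insig1: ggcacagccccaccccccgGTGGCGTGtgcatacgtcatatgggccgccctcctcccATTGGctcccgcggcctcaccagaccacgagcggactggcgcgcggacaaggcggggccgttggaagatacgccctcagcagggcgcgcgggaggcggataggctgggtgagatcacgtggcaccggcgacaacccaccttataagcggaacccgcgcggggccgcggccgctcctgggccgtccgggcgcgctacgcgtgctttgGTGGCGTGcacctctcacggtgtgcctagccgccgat
Lss: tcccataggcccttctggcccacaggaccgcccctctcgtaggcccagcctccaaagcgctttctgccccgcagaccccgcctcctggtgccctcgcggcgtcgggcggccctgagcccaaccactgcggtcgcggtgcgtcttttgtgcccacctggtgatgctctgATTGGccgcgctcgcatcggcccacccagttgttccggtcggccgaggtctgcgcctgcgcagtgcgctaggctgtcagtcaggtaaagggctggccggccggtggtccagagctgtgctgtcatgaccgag

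The CCAAT letters were found in 3 of the 5 windows, those of Hmgcs1 (2 matches), Insig1 and Lss, against 37.5% of all 33469 windows of this length. Among the windows of other synthesis enzymes, 11 of 12 held them. The sterol element core was found in Insig1 alone (2 matches), against 5.8% of all windows, and its longer form in none of the 5, against 1.12%. A GC box (GGGCGG, on either strand) was found in 5 of 5, against 33.1% of all windows and 10 of 12 of the other enzymes. These matches are letters in a window and were not measured as binding, and the Cyp51 window printed above holds neither CCAAT nor the core.

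All 7 genes passed the filter on low values (at least 10 normalized reads in at least 6 libraries) in both regions, where 14915 genes were tested in CA1 and 14904 in DG. Libraries held from 12130182 to 23519792 recovered reads, of which single members took from 286 to 5055. Values are the authors' normalized reads, which are not scaled by gene length and were normalized separately in each region, so they are set against each other only within a gene and a region. Markers of the region labels are given as a rough description only, as the regions were normalized separately. Wfs1, a marker of CA1 pyramidal cells, was at 11165 to 41628 normalized reads in CA1 libraries. Prox1, the defining factor of dentate granule cells, was at 1831 to 4129 in DG libraries. Reads of both markers were also found in the other region, and whether they came from neighbouring tissue was not tested. Wfs1 ran from 522 to 10922 in DG and Prox1 from 298 to 1787 in CA1. The aged CA1 library from rat 2532 stood apart. It held the fewest recovered reads of CA1 (12292346), and each read counted there as 1.46 normalized reads, the most of that region. The part of this scaling in its high values was not tested. Its mean log2 level over the 7 genes was 0.47 above the mean of the region, where the next highest library was at 0.15, and its mean over the neuron markers Rbfox3, Snap25, Syt1 and Map2 was 0.49 above, where the others reached 0.23. Those markers went opposite ways in it: Snap25, Syt1 and Map2 were at their highest of CA1 there (34784, 58089 and 66261 normalized reads), while Rbfox3 was at its lowest (375). Many values of CA1 moved without this library, and the larger of these shifts are given beside the values they concern.

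**Figure D1:**
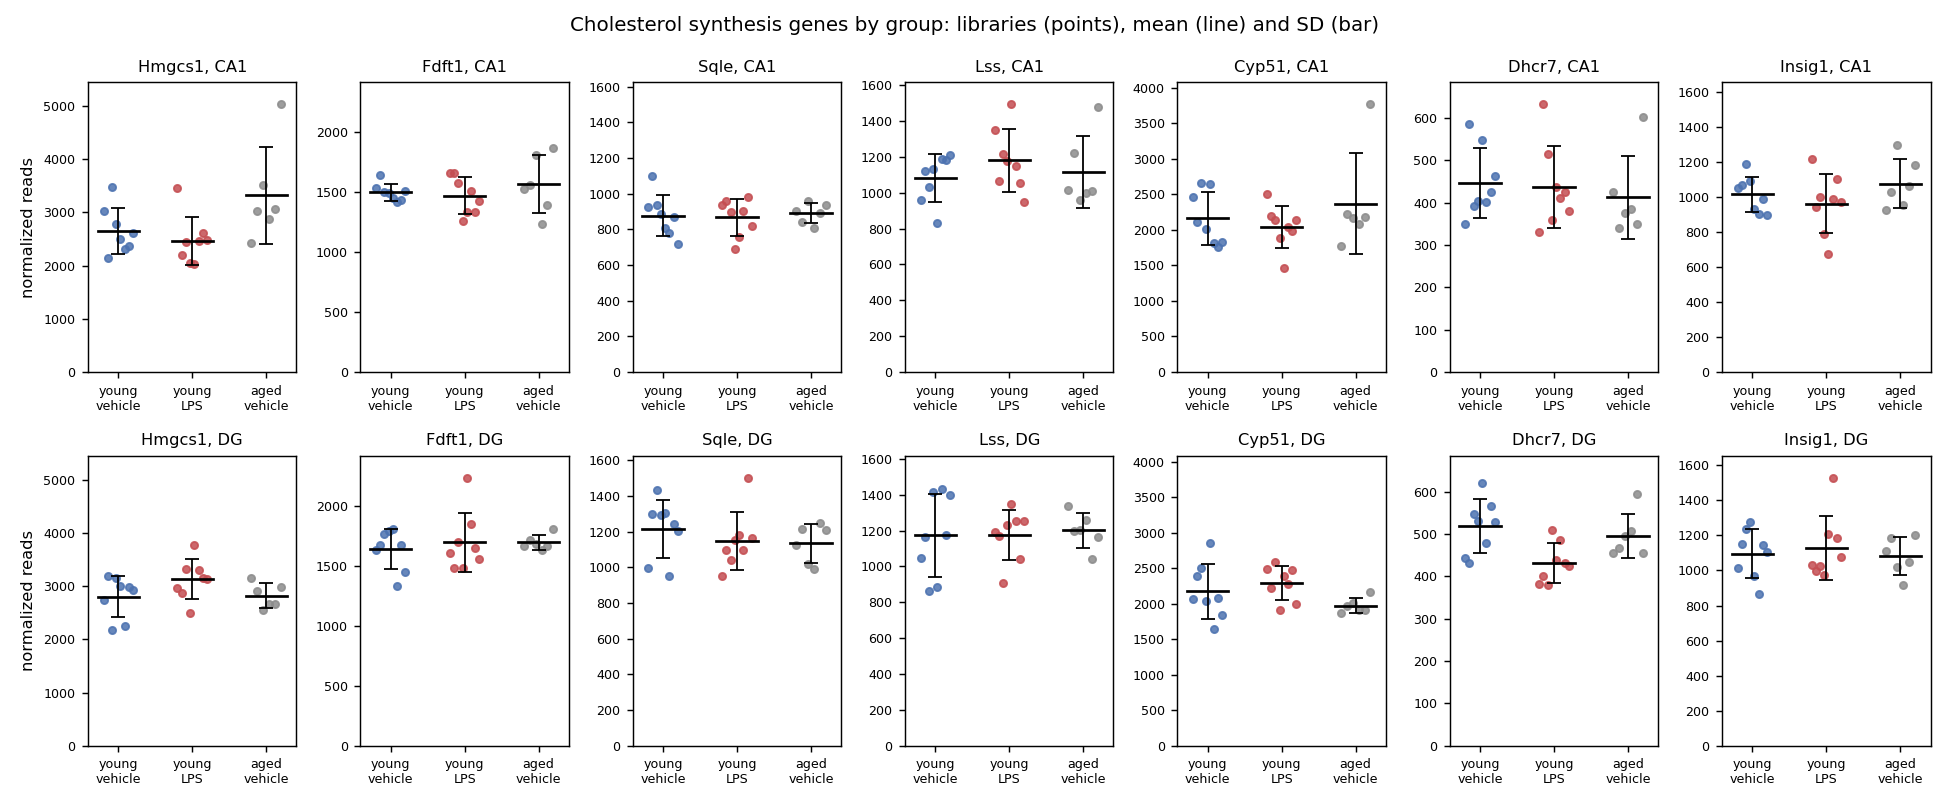
Normalized reads of the 7 genes in every library of CA1 (upper row) and DG (lower row), by group (8 young vehicle, 8 young LPS, 6 aged vehicle), with the group mean as a line and the SD as a bar; each vertical axis starts at 0. The groups overlap in each panel, and the aged CA1 library at 5044 for Hmgcs1 and at 3775 for Cyp51 lies above all others.

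None of the 7 genes changed past the threshold (limma, Benjamini-Hochberg adjusted p of 0.05) with LPS, with age, or between LPS and aged rats, in either region. In CA1 the share of all tested genes that passed was 0% for LPS, 0.0134% for age and 8.73% for LPS against aged. In DG it was 0.0134% in each of the 3 comparisons. At an unadjusted p below 0.05, no member was counted for LPS in CA1 (6.87% of all genes), Hmgcs1 for age in CA1 (12.6%) and Hmgcs1 for LPS against aged in CA1 (35.8%). In DG, Dhcr7 was counted for LPS (7.53% of all genes), no member for age (2.99%), and Dhcr7 and Cyp51 for LPS against aged (9.1%). With edgeR, no member passed at the adjusted threshold apart from Hmgcs1 in LPS against aged in CA1. The share of all genes was 0% for LPS, 0.0134% for age and 14.4% for LPS against aged in CA1, and 0.0134%, 0.0134% and 0.00671% in DG. DESeq2 likewise passed Hmgcs1 there and no other member, where the shares of all genes were 0.00671%, 0.0469% and 22.8% in CA1 and 0.0201%, 0.0268% and 0.148% in DG. For each member the groups overlapped in all 6 comparisons. Groups were without overlap for 0.0134%, 0.235% and 0.838% of all genes in CA1, and for 0.0403%, 0.0738% and 0.443% in DG, for LPS, age and LPS against aged.

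Hmgcs1, the entry enzyme, had the largest differences among the 7 genes in CA1 for age and for LPS against aged rats. Young vehicle libraries ran from 2144 through a median of 2552 to 3481 normalized reads, with a mean of 2652 ± 434 (SD, n = 8). Young LPS libraries ran from 2032 through 2452 to 3456, with a mean of 2467 ± 452 (SD, n = 8). Aged libraries ran from 2422 through 3045 to 5044, with a mean of 3326 ± 911 (SD, n = 6). Most aged libraries were thus high and most LPS libraries low: 7 of 8 LPS libraries lay below the aged median and 3 of 8 below the lowest aged library, while 5 of 6 aged libraries lay above the young vehicle median. The log2 difference of LPS minus aged was -0.41 (SE 0.14), with a limma adjusted p of 0.0573, just outside the threshold. Using edgeR on the recovered reads its adjusted p was 0.0452 and with DESeq2 0.0283. Without the aged library of rat 2532 the difference was -0.28 (limma adjusted p = 0.168), and in that fit 0 of 14875 genes passed in this comparison, with 3673 at an unadjusted p below 0.05. Without the lowest aged library, that of rat 2411, the difference was -0.49 (limma adjusted p = 0.0246), and without the LPS library of rat 2403, the highest of its group, it was -0.48 (limma adjusted p = 0.0319). The neuron marker mean, relative to the region mean, ran from -0.06 to 0.49 in aged and from -0.18 to 0.08 in LPS libraries. Of the 4 neuron markers, Rbfox3 was higher in LPS than in aged libraries past the threshold and the other 3 were not past it, with log2 differences from -0.51 to -0.43. Their part in the Hmgcs1 difference was not tested.

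With age, the log2 difference of Hmgcs1 in CA1 was 0.30 (95% interval 0.01 to 0.59, unadjusted p = 0.042, limma adjusted p = 0.393). Without the library of rat 2532 it was 0.18. For LPS against young vehicle it was -0.11 (interval -0.38 to 0.16). In DG the young vehicle libraries ran from 2174 through 2959 to 3184, the LPS libraries from 2500 through 3146 to 3779, and the aged libraries from 2551 through 2793 to 3146. The LPS libraries lay higher on the whole, with 6 of 8 above the young vehicle median and 7 of 8 above the aged median. The log2 difference of LPS minus young vehicle in DG was 0.16 (SE 0.09, limma adjusted p = 0.693), and that of LPS minus aged was 0.15 (adjusted p = 0.685). The estimates for LPS thus had opposite signs in the 2 regions. The test of that contrast within rats, CA1 minus DG, gave -0.27 (95% interval -0.63 to 0.09, limma adjusted p = 0.468), so the regions were not shown to differ.

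Fdft1, Sqle and Lss, which carry the pathway from farnesyl units through squalene to lanosterol, had no log2 difference larger than 0.12 in size in any of the 6 comparisons. Fdft1 in CA1 ran from 1422 through 1498 to 1648 in young vehicle, from 1263 through 1467 to 1660 in LPS and from 1234 through 1543 to 1865 in aged libraries. Its young vehicle libraries were tightly packed, with a coefficient of variation of 4.72%, and both other groups reached above and below them. In DG its aged libraries were the tightest of any member and group at 3.70%, running from 1631 through 1677 to 1811. Young vehicle libraries ran there from 1333 through 1676 to 1811 and LPS libraries from 1484 through 1629 to 2238.

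Sqle, a rate-limiting step of the pathway, ran in CA1 from 716 through 878 to 1098 in young vehicle, from 691 through 900 to 982 in LPS and from 807 through 896 to 959 in aged libraries. In DG it ran from 950 through 1266 to 1431, from 951 through 1126 to 1503 and from 992 through 1169 to 1246 in the same groups. There 7 of 8 LPS libraries and 6 of 6 aged libraries lay below the young vehicle median, yet the log2 differences were -0.08 (95% interval -0.27 to 0.11) for LPS and -0.09 (-0.30 to 0.11) for age. Lss in CA1 ran from 832 through 1126 to 1208 in young vehicle, from 947 through 1160 to 1495 in LPS and from 961 through 1012 to 1476 in aged libraries. It had the only positive log2 difference with LPS in CA1 among the members, 0.12 (-0.10 to 0.34). In DG it ran from 861 through 1169 to 1432, from 906 through 1209 to 1346 and from 1042 through 1199 to 1339. The young vehicle libraries of DG spread most, with a coefficient of variation of 19.7%, against 8.24% in aged libraries.

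Cyp51, the lanosterol demethylase, had 1 aged CA1 library far above the rest. Young vehicle libraries of CA1 ran from 1760 through 2057 to 2654, LPS libraries from 1463 through 2085 to 2499 and aged libraries from 1770 through 2172 to 3775. With that library, from rat 2532, the log2 difference with age was 0.11 (95% interval -0.19 to 0.40), and without it -0.04. For LPS against young vehicle in CA1 it was -0.08 (-0.35 to 0.20). In DG young vehicle libraries ran from 1646 through 2070 to 2848, LPS libraries from 1914 through 2334 to 2590 and aged libraries from 1868 through 1942 to 2170. Aged libraries there sat in a narrow low band, and 6 of 8 LPS libraries lay above the highest of them. The log2 difference of LPS minus aged in DG was 0.21 (SE 0.10, unadjusted p = 0.0403, limma adjusted p = 0.521).

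Dhcr7, the last reductase, was lower in LPS libraries of DG than in most libraries of the other groups. Young vehicle libraries of DG ran from 432 through 530 to 621, LPS libraries from 380 through 428 to 511 and aged libraries from 455 through 481 to 594. All 8 LPS libraries lay below the young vehicle median, 5 of 8 below the lowest young vehicle library, and 6 of 8 below the lowest aged library. The means were 432 ± 46.7 (SD, n = 8) in LPS, 519 ± 64.1 (SD, n = 8) in young vehicle and 496 ± 52.4 (SD, n = 6) in aged libraries. The log2 difference of LPS minus young vehicle was -0.26 (SE 0.09, unadjusted p = 0.00604), which did not pass after adjustment over all genes (limma adjusted p = 0.522). It stayed between -0.30 and -0.22 when single libraries were left out. LPS minus aged was -0.20 (SE 0.09, limma adjusted p = 0.534). In CA1 the 3 groups lay on top of each other, at 350 through 415 to 587 in young vehicle, 331 through 419 to 634 in LPS and 340 through 381 to 602 in aged libraries, with a log2 difference for LPS of -0.04 (95% interval -0.33 to 0.25). The LPS effect in CA1 minus that in DG was 0.22 (-0.14 to 0.58, limma adjusted p = 0.551).

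Insig1, the sterol sensor partner, did not pass in any comparison either. In CA1 it ran from 895 through 1018 to 1185 in young vehicle, from 674 through 977 to 1215 in LPS and from 926 through 1046 to 1295 in aged libraries. In DG it ran from 867 through 1125 to 1277, from 974 through 1054 to 1530 and from 918 through 1081 to 1203. Its log2 differences lay between -0.17 and 0.08, and that of -0.17 was LPS minus aged in CA1 (95% interval -0.41 to 0.06).

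**Figure D2:**
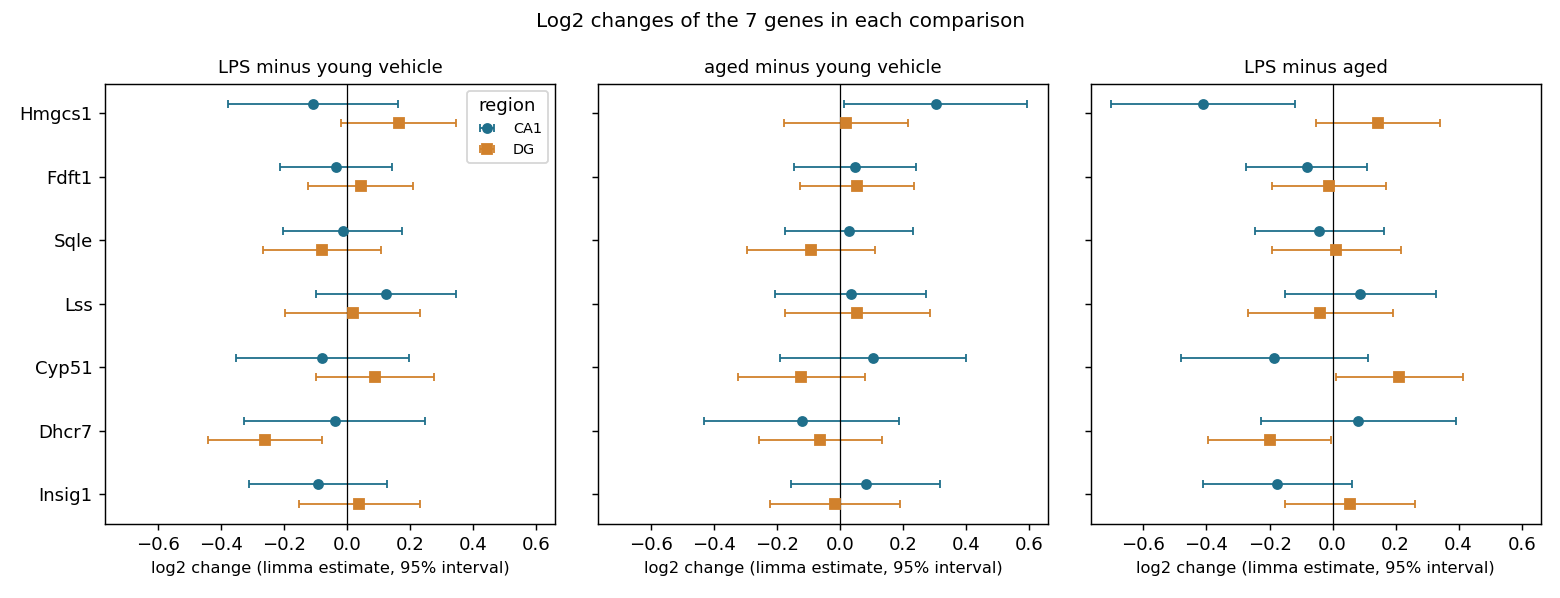
Log2 change of each gene in the 3 comparisons, as the limma estimate on log2(normalized reads + 1) with its 95% interval, in CA1 (circles) and DG (squares). Intervals that leave out 0 are those of Hmgcs1 for age and LPS minus aged in CA1, of Dhcr7 for LPS and LPS minus aged in DG, and of Cyp51 for LPS minus aged in DG; none passed after adjustment over all genes.

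Read as a group, the 7 genes moved little. The median log2 difference for LPS in CA1 was -0.04, with 6 of 7 genes below 0, where the median of all tested genes was 0.01 and 47.8% were below 0. For age in CA1 it was 0.05 with 6 of 7 above 0, where all genes had a median of 0.0027 and 50.4% above 0. Without the library of rat 2532 the median for age was -0.0054. For LPS minus aged in CA1 it was -0.08 with 5 of 7 below 0 (all genes 0.02, 48% below 0), and -0.03 without that library. In DG the medians were 0.04 for LPS with 5 of 7 above 0 (48.8% of all genes), -0.02 for age with 4 of 7 below 0 (48.2%) and 0.01 for LPS minus aged with 4 of 7 above 0 (48%). The 3 comparisons of a region share libraries, so their medians are not independent of each other. No member had an effect that differed between CA1 and DG within rats past the adjusted threshold, where 0.00683% of 14637 genes did for LPS and 0% for age. No member was counted at an unadjusted p below 0.05 either (13% and 5.21% of all genes). The difference lay below 0 for 4 of 7 genes for LPS (47.7% of all genes) and for 3 of 7 for age (49.9%).

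The rest of the pathway was as still, apart from LPS against aged rats in CA1. With limma, none of 15 other synthesis enzymes passed in any of the 6 comparisons. The same held for 9 tested genes of SREBP control and uptake and for 8 genes of fatty acid synthesis. Of 14 genes of cholesterol efflux, storage and turnover, 2 were higher and none lower in LPS than in aged CA1, where 3.49% of all genes were higher and 5.24% lower, and none passed elsewhere. Both genes export or clear cholesterol. Abcg1, a transporter that hands cholesterol to lipoproteins, was at 1345 through 1638 to 1838 in LPS and 1044 through 1297 to 1379 in aged libraries, a log2 difference of 0.35 (SE 0.09, limma adjusted p = 0.049). Cyp46a1, the neuronal hydroxylase that lets cholesterol leave the brain, was at 2909 through 3677 to 5745 and 1629 through 2720 to 4190, a log2 difference of 0.53 (SE 0.16, limma adjusted p = 0.049). Both groups overlapped for each gene, and without the library of rat 2532 the adjusted p was 0.121 for Abcg1 (difference 0.29) and 0.134 for Cyp46a1 (difference 0.39).

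Several genes lay just outside the limma threshold in that comparison. Mbtps2, a protease that releases active SREBP, had a log2 difference of -0.63 (limma adjusted p = 0.0536), which was -0.39 (limma adjusted p = 0.149) without the library of rat 2532. Among the other enzymes, Sc5d, which acts just before Dhcr7, had a difference of -0.34 (limma adjusted p = 0.0556; 0.154 without that library), in the direction of Hmgcs1. Mvd, the mevalonate pathway decarboxylase, had a difference of 0.47 in the opposite direction (limma adjusted p = 0.0605). The pair of fatty acid synthesis genes with the smallest p, Fasn (0.29, limma adjusted p = 0.0631) and Elovl6 (-0.47, limma adjusted p = 0.0949), also had opposite signs. Without the same library they were 0.20 (limma adjusted p = 0.182) and -0.23 (limma adjusted p = 0.306). With DESeq2, where 22.8% of all genes passed, Mbtps2, Sc5d, Mvd, Fasn and Elovl6 each passed (adjusted p from 0.0123 for Mbtps2 to 0.0370 for Elovl6). With edgeR, where 14.4% of all genes passed, Mbtps2 (adjusted p = 0.0342) and Sc5d (0.0485) passed, and Mvd, Fasn and Elovl6 did not.

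For LPS against young vehicle the genes of smallest p in CA1 were Ebp (-0.22) and Idi1 (-0.37) among other enzymes, Srebf1 (0.31) and Mbtps2 (-0.33) among SREBP genes, Fasn (0.23) and Scd2 (0.19) among fatty acid genes, and Npc2 (0.35) and Abcg1 (0.19) among efflux genes, each with a limma adjusted p of 0.654. Scd2 was at 0.12 without the LPS library of rat 2404. Srebf1 encodes the SREBP that mainly drives fatty acid genes, and of the 8 genes of fatty acid synthesis 4 had positive and 4 negative differences. For age in CA1 they were Ebp (-0.36) and Mvd (-0.39), Mylip (0.40), Elovl6 (0.44) and Acly (0.13), and Abca1 (0.39) and Abcg4 (0.33), with limma adjusted p from 0.393 to 0.398. Several of these rested on the library of rat 2532, without which Mylip was at 0.13, Elovl6 at 0.19, Abca1 at 0.22 and Abcg4 at 0.13.

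In DG, Acat2, the thiolase that makes acetoacetyl-CoA for Hmgcs1, had differences of -0.36 for LPS and -0.37 for LPS minus aged (limma adjusted p = 0.597 and 0.479). Sc5d had 0.14 and 0.13 in the same comparisons, Scap -0.14 and -0.15, Stard4 0.22 and 0.24, and Elovl6 0.23 and 0.26. The others named by the smallest p were Fasn (-0.12), Lcat (-0.31) and Abca1 (0.15) for LPS, and Scd2 (-0.17), Lcat (-0.50) and Nr1h3 (-0.60) for LPS minus aged. For LPS, single libraries moved these far: Fasn was at -0.06 without that of rat 2408, Lcat at -0.15 and Abca1 at 0.10 without that of rat 2526, and Lcat was at 0.02 with library weights. For age in DG they were Msmo1 (0.09), Ebp (0.12), Srebf2 (-0.09), Mbtps1 (-0.05), Scd2 (0.15), Acly (0.08), Npc2 (0.25) and Nr1h3 (0.36), each with a limma adjusted p of 0.9998. Of these, Msmo1 was at 0.04 without the library of rat 2722, Ebp at 0.06 without that of rat 2531, and Mbtps1 at -0.08 and Acly at 0.05 without that of rat 2526.

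While group means differed little, single rats varied, and part of the members varied together. After the group mean was taken from each library's log2 level, the 21 pairs of members in CA1 had a median Pearson r of 0.31 over 22 libraries. Of these pairs 16 were positive and 8 were at 0.5 or above (38.1%, against 11.2% of all pairs of tested genes). With the library of rat 2532 left out, 13 were positive and 6 were at 0.5 or above (28.6%, against 9.1% of all pairs). In DG the median was 0.23, with 15 positive and 4 at 0.5 or above (19%, against 5.39% of all pairs). The libraries of a region share dissection and normalization, which can move genes together. Leaving out single libraries moved the median between 0.26 and 0.37 in CA1. In DG it moved between 0.12 and 0.27, and the lowest value was without the young vehicle library of rat 2722, when 2 pairs stayed at 0.5 or above.

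Hmgcs1 and Cyp51, an early and a late enzyme, were the closest pair in CA1, with r = 0.80 and Spearman's rho = 0.69 (permutation p = 1e-05, the smallest 100000 permutations can give, and p = 0.00054; adjusted over 21 pairs 0.00021 and 0.00378). Leaving out the 2 libraries farthest on Hmgcs1 gave r = 0.65, and without the library of rat 2532 it was 0.68. Within rats whose number starts with 24 (n = 8) r was 0.84, and with 25 (n = 10) it was 0.76. Those leading digits are not stated to be batches, and the 4 rats numbered 27 were too few for a value. Hmgcs1 with Insig1 (r = 0.73, rho = 0.80, adjusted permutation p = 0.00105 and 0.00021; 0.71 without the 2 farthest libraries; 0.91 and 0.63 by leading digits) and Sqle with Insig1 (r = 0.73, rho = 0.81, adjusted permutation p = 0.00119 and 0.000315; 0.77; 0.51 and 0.74) followed. Insig1, the brake of the pathway, so varied from rat to rat with its first enzyme here and with squalene epoxidase.

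In the same region Fdft1 was positively related to Hmgcs1 (r = 0.51) and Cyp51 (r = 0.53), but without the library of rat 2532 these were 0.35 and 0.36, and without the 2 farthest libraries 0.25 and 0.40. The other pairs at 0.5 or above in CA1 were Sqle with Fdft1 (0.58), Fdft1 with Insig1 (0.59) and Insig1 with Cyp51 (0.61). In DG they were Fdft1 with Cyp51 (0.63), Fdft1 with Insig1 (0.61), Hmgcs1 with Fdft1 (0.59) and Sqle with Insig1 (0.53). Hmgcs1 with Cyp51, the closest pair in CA1, had r = 0.31 in DG.

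**Figure D3:**
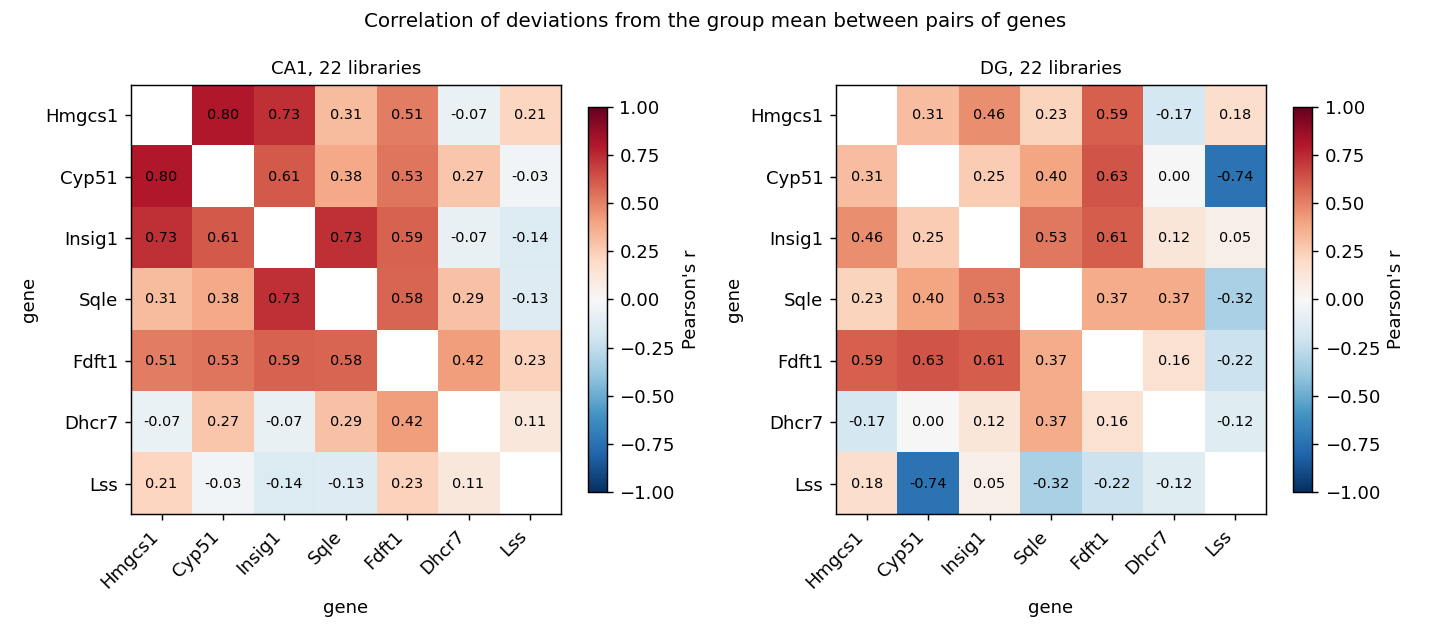
Pearson's r between each pair of the 7 genes over 22 libraries per region, after removal of group means, in CA1 (left) and DG (right); red is positive and blue negative. Hmgcs1, Cyp51, Insig1, Sqle and Fdft1 form a block of positive values in CA1, Dhcr7 and Lss stand outside it, and Lss with Cyp51 in DG is the only strongly negative pair (-0.74).

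Lss and Dhcr7 stood apart from the others, and Cyp51 had a low r in DG as well. Against the mean of the other 6 members, r in CA1 was 0.76 for Fdft1, 0.67 for Cyp51, 0.65 for Hmgcs1, 0.64 for Insig1 and 0.55 for Sqle. It was 0.23 there for Dhcr7 and 0.06 for Lss. Without the library of rat 2532 these were 0.70, 0.45, 0.45, 0.76 and 0.68, and -0.12 and -0.33. In DG it was 0.71 for Fdft1, 0.66 for Insig1, 0.50 for Hmgcs1 and 0.49 for Sqle. For Cyp51 it was 0.25, for Dhcr7 0.10 and for Lss -0.30. By Spearman's rho, Cyp51 (0.16) lay below Dhcr7 (0.19) in DG. Lss and Cyp51, which make and then demethylate lanosterol, ran opposite to each other in DG, with r = -0.74 and rho = -0.70 (permutation p = 6e-05 and 0.00039, adjusted over 21 pairs 0.00126 and 0.00819). Without the 2 libraries farthest on Lss r was -0.61, by leading digits it was -0.71 and -0.62, and leaving out any single library kept it at -0.67 or below. The young vehicle library of rat 2722 had the highest Lss (1432) and the lowest Cyp51 (1646) of DG, and that of rat 2526 the lowest Lss (861). In CA1 the same pair had r = -0.03.

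**Figure D4:**
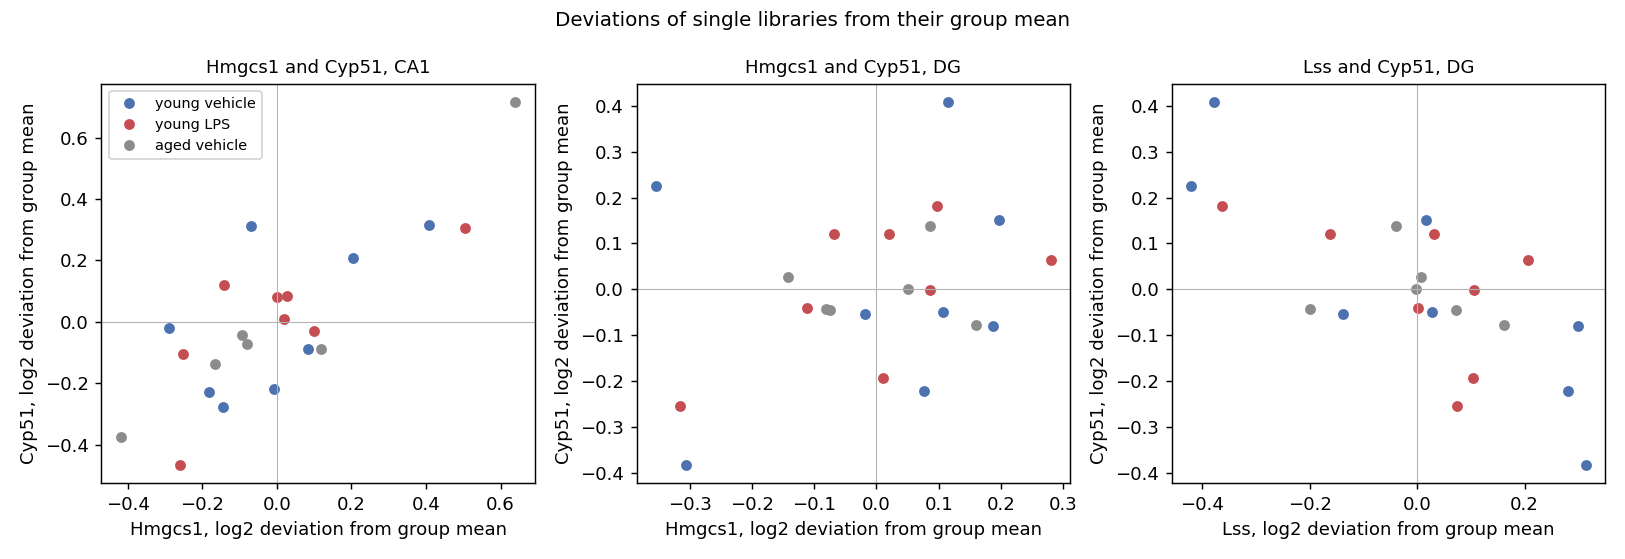
Log2 deviation of each library from its group mean for Hmgcs1 against Cyp51 in CA1 (left) and DG (middle) and for Lss against Cyp51 in DG (right), with 1 point per library coloured by group. The left panel rises (r = 0.80), with the aged library of rat 2532 at the upper right, the middle panel is loose (r = 0.31) and the right panel falls (r = -0.74).

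A low mean level over the 7 genes in a region went with a high mean in the other region in rat 2543 and with a low mean in rat 2722. Rat 2543, given LPS, had the lowest Hmgcs1 (2032), Insig1 (674) and Cyp51 (1463) of CA1, but also the highest Lss there (1495). In DG it had the highest Hmgcs1 (3779) and Fdft1 (2238). Its mean log2 level over the 7 genes was -0.20 in CA1 and 0.17 in DG, relative to the 2 region means. The DG library of rat 2722 had the lowest Sqle (950), Fdft1 (1333), Insig1 (867) and Cyp51 (1646) of DG, but also the highest Lss there (1432). Its member mean was the lowest of DG (-0.20), and in CA1 the member mean of this rat was the third lowest (-0.12). Between the CA1 and DG libraries of the same 22 rats, the member mean had r = 0.08 and rho = 0.09 (r = -0.04 without rat 2532). Among single genes Cyp51 was highest, with r = 0.51 and rho = 0.59 (permutation p = 0.0152 and 0.00471, adjusted over 8 relations 0.122 and 0.0377; r = 0.64 without the 2 farthest rats), and Hmgcs1 had r = -0.20. Without rat 2532 these were 0.52 and -0.33.

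The members' mean was followed by other pathway genes to an unequal degree, given here as a description over the same 22 libraries. The gene by gene correlation with the member mean was at 0.5 or above for 6 of 15 other synthesis enzymes in CA1 (40%, against 11.3% of all other tested genes) and for 5 of 15 in DG (33.3%, against 5.62%). Without the library of rat 2532 it was so for 4 of 15 in CA1 (26.7%, against 2.99%). Msmo1 (0.86), which removes methyl groups after Cyp51, was highest in CA1, while Lbr (-0.45) in CA1 and Mvk (-0.28) in DG were lowest. Without that library Msmo1 was at 0.77 and Lbr at -0.22, and Ebp was then the lowest at -0.51 (-0.15 with it). The mean level of those 15 enzymes had r = 0.81 with the member mean in each region. Taken singly, the enzymes had a median r of 0.25 in CA1 and 0.40 in DG. Among rats numbered 24 and 25 the r of their mean level was 0.65 and 0.81 in CA1, but 0.08 and 0.63 in DG. SREBP control and uptake genes averaged 0.70 in CA1 (0.38 without the library of rat 2532) and -0.04 in DG. The 14 genes of efflux, storage and turnover went both ways, with a median r of 0.07 in CA1 and -0.13 in DG, and 14.3% and 7.14% of them at 0.5 or above. In CA1 they ran from Cyp46a1 (-0.60), which clears cholesterol, to Nceh1 (0.61), a cholesterol ester hydrolase. Without the library of rat 2532 this pair was at -0.39 and 0.15, and Npc1 was then the highest at 0.49 (0.15 with it). In DG the 14 genes ran from Npc1 (-0.41), which moves cholesterol out of lysosomes, to Cyp27a1 (0.78), a sterol hydroxylase.

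Cell type markers moved with the members as well. The neuron marker mean had r = 0.61 with the member mean in CA1, which was 0.24 without the library of rat 2532, and 0.74 in DG, where it was -0.12 among rats numbered 24 and 0.72 among those numbered 25. CA1 pyramidal markers had r = -0.55 in DG (-0.15 and 0.03 by leading digits), where their mean ran from -2.20 to 1.64 log2 units around the region mean. Oligodendrocyte markers, whose cells are a main source of brain cholesterol, had r = 0.42 in CA1 and -0.22 in DG, and astrocyte markers 0.25 and -0.25. The remaining lists lay between -0.32 (dentate granule) and 0.27 (meningeal fibroblast) in CA1 and between -0.42 (dentate granule) and 0.12 (microglia) in DG. Leaving out the library of rat 2532, CA1 pyramidal markers in CA1 went from -0.02 to -0.46, astrocyte markers from 0.25 to 0.39 and endothelial markers from 0.12 to 0.40. Choroid plexus tissue was uneven in CA1, where its marker Ttr ran from 6.94 to 8469 normalized reads, and was not analysed here in DG. In tissue pieces such as these, fewer cells of a type and less RNA per cell cannot be told apart, and the part of cell composition in the covariation of the members was not tested.

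Of all genes outside the 7, those whose pattern was most like the member mean in CA1 were Fbxw7 (r = 0.88), Msmo1 (0.86), Idi1 (0.85), Cacnb4 (0.83) and Lysmd3 (0.83), among 14908 genes ranked. Without the library of rat 2532 these were at 0.81, 0.77, 0.74, 0.70 and 0.70, and Fbxw7 was still the highest. Msmo1 and Idi1, the isomerase of isoprene units, are themselves synthesis enzymes. In DG they were Fut8 (0.89), Me1 (0.88), Elavl2 (0.88), Snx7 (0.87) and Stmn2 (0.86), among 14897, with no synthesis enzyme among them.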

How the data were processed

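For each region the authors deposited a table of normalized read counts, treated here as a signal that cannot be negative. Per the submitters' processing notes, the tools were STAR, Partek and DESeq2 and the build rn6, with neither roles nor versions. Annotation, read filters and strand use were not given in the sources used here. Each library's deposited values were whole multiples of 1 step (0.818 to 1.46 in CA1, 0.659 to 1.32 in DG). Dividing by it gave whole reads, within 0.1, for 99.49% of values above 0 in CA1 and 99.97% in DG, and totals of 12292346 to 18749690 and 12130182 to 23519792 reads per library.

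Genes at 10 or more in at least 6 libraries were tested with limma 3.58.1 (R 4.3.3, trend and robust options) on log2(value + 1), one fit per region holding the 3 groups, and p-values were adjusted over all genes (Benjamini-Hochberg). Fold changes on this scale understate those of low genes. edgeR 4.0.16 and DESeq2 1.42.0 on the recovered reads were alternatives. Region differences were tested on CA1 minus DG within each rat. The pairing comes from the labels: both libraries of a rat come from 1 hippocampus and carry its number. Across genes, the deviations of a rat's CA1 and DG libraries correlated at a median r of 0.05, and in 8 of 22 rats r exceeded 0.1. For 1 rat the own partner was the best match, about as many as unmatched libraries would give. The best matches thus gave no sign of the pairing, which rests on the labels. The closest replicates differed by more than counting noise (chi-square per gene 4.66 in CA1, 6.75 in DG). Permutation tests were two-sided, with 100000 permutations. The alternatives for correlations, the library of rat 2532 left out among them, were chosen after seeing the data. The limma procedure was tested on simulated data.

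The 7 genes, the pathway and marker lists and the naming rule (all members, list genes past the threshold and the 2 of smallest p per list and comparison, and the 5 genes most like the member mean per region) were chosen with earlier results of these data known. Some genes that the rule takes are not reported here. Promoter windows are RefSeq's (GRCr8), not the authors' build. They were matched by symbol.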

Additional observations from a re-analysis of the deposited data

Results flagged for a closer look

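In 6 of 42 groups of libraries (7 genes, 3 groups, 2 regions) the highest library was set off from the rest of its group by more than Dixon's 95% critical value, which chance exceeds in about 1 in 20 groups. In CA1 these were Hmgcs1 in the young LPS library of rat 2403 (3456 normalized reads), and Dhcr7 (602) and Cyp51 (3775) in the aged library of rat 2532. In DG they were Sqle in the young LPS library of rat 2573 (1503), Insig1 in the young LPS library of rat 2547 (1530) and Dhcr7 in the aged library of rat 2531 (594). No difference between the CA1 and DG effects of a member passed the threshold.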

How the results depend on the processing

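The alternatives were 2 other pseudocounts, 2 other filters, TMM scaling, library weights, the leading digits of the rat number, a dissection score or the oligodendrocyte marker mean in the fit, edgeR, DESeq2, only the 2 groups compared, and each of the 22 libraries of a region left out. For LPS minus aged in CA1 the number of members past the threshold went from 0 to 1, always Hmgcs1, with library weights (1), with the dissection score (1), with the oligodendrocyte marker mean (1), with edgeR (1) and with DESeq2 (1), and ranged from 0 to 1 when single libraries were left out. The adjusted p of Hmgcs1 there ran from 0.0185 to 0.0960 over 12 alternatives, and the cause was not tested. Abcg1 and Cyp46a1 passed in 10 of 12 alternatives each, and in 7 and 6 of the 22 fits without 1 library. In every other comparison 0 members passed under each alternative. Over all comparisons, 1799 of 1806 member values stayed on their side of the threshold, and the 7 that crossed it were those of Hmgcs1 just named. Of the 1806 values 71 changed sign, none of them past the threshold. Taking the region difference without the rat as a block (no replicate block) left 0 members past the threshold for LPS and 0 for age. Spread within groups limits what could be seen: the standard errors of the members' log2 differences ran from 0.08 to 0.15 within a region.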
